A study of Homo sapiens with 4 samples.

Results

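The secreted chemokines described here are 10 genes of the chemokine family that fibroblasts are known to release: CXCL1, CXCL2, CXCL3, CXCL5, CXCL6, IL8 (also called CXCL8), CXCL12, CCL2, CCL7 and CCL20. They were chosen by name, with earlier results of these data known. All 10 were found among the 63677 genes of the deposited count files. All 10 also passed the filter on low counts, which kept 15398 genes. The cells were IMR90, a line of normal human lung fibroblasts grown as the single isolates I90-10 and I90-79, which started at passage 5 and were passaged continuously. Control cells received a non-targeting siRNA (NTC) and knockdown cells received siRNA against HMGB1, both for 72 h and both with the transfection reagent RNAiMAX. HMGB1 is an abundant chromatin protein, which is lost from nuclei as cells become senescent and can be released as a signal of damage. The study asked how the loss of HMGB1 changes gene expression, including the secretory program of senescent cells. Each group had 2 RNA-seq libraries, replicate 1 from I90-10 and replicate 2 from I90-79. In a fit without a term for the isolate, the p-values therefore measure the spread between the isolates and the scatter that comes with it. In a fit with the isolate as a block, they set the change against how unequal it was in the 2 isolates. In edgeR this scatter is drawn towards a value shared with other genes. A call with the block therefore does not show that the change was equal in both isolates. The study's methods name a pair of siRNAs for IMR90, and which of them went into each library is not stated.

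Chemokines are small secreted proteins that bind receptors on leukocytes and direct their movement. CXCL1, CXCL2, CXCL3, CXCL5, CXCL6 and IL8 share the ELR motif and attract neutrophils through the receptors CXCR1 and CXCR2. CCL2 and CCL7 attract monocytes, mainly through CCR2, and CCL20 attracts cells that carry CCR6, among them a class of helper T cells. CXCL12 acts through CXCR4, and it is made by stromal cells at rest, whereas most of the others are induced by IL-1, TNF or microbial products. Induction runs through NF-κB bound near the start of the gene. Their mRNAs are kept short-lived by AU-rich elements in the 3′ UTR, and senescent fibroblasts are known to secrete several of these proteins.

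The libraries held 29861687 to 35317010 counted reads. HMGB1, the targeted gene, was expressed at 181 and 237 CPM in the control libraries and at 15.96 and 18.9 CPM in the knockdown libraries of I90-10 and I90-79, where CPM are read counts scaled by library size. Its log2-fold change was −3.59 (SE 0.19, adjusted p = 0.00751, edgeR's quasi-likelihood test). All 12 fibroblast markers were detected and tested, with a summed level of 21883 to 40473 CPM. In both groups the sum was higher in I90-10, with 40473 CPM in control and 39069 in knockdown, than in I90-79, with 21883 and 24244. The 8 monocyte and macrophage markers held 9 to 13 reads per library in all, LYZ and 1 other being at 0 throughout, and the 8 epithelial markers held 28 to 53 reads. Among 6 endothelial markers, CDH5 and EMCN were at 0 in each library, while TEK was at 131 to 149 CPM. VWF and KDR of the same list were also detected and tested. Bulk RNA cannot tell a smaller number of cells of a type from less RNA per cell.

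The short sequences in front of these genes are shown because 6 members, the neutrophil attractants, share a word in them. In the 250 bases before the start of each gene's window in RefSeq (assembly GRCh38.p14, 9 members matched, all but CCL2), 3 words were searched on both strands. They were the κB-type word GGAANTTCC, which reads the same on both strands, the AP-1 word TGANTCA and the TATA word TATAAA. GGAANTTCC was found in 0.826% of 35116 such windows of all genes, and in 6 of the 9 members. These 6 were the neutrophil-attracting CXC genes, each with the same 9 letters GGAATTTCC and with the first letter 77 to 91 bases before the start. They are printed 5′ to 3′ along the gene, with the word in capitals, and each stretch was placed in hg19 by an exact match.
IL8: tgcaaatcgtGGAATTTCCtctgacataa
CXCL6: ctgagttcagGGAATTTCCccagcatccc
CXCL1: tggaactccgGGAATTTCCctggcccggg
CXCL5: atgagttcagGGAATTTCCccagcatccc
CXCL3: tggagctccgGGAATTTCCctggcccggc
CXCL2: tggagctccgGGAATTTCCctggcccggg
The stretches lie at chr4:74606185-74606213 for IL8, chr4:74702296-74702324 for CXCL6 and chr4:74735022-74735050 for CXCL1, all on the plus strand. Those of the minus-strand genes lie at chr4:74864466-74864494 for CXCL5, chr4:74904466-74904494 for CXCL3 and chr4:74964971-74964999 for CXCL2. The gene models of the count files begin further upstream for CXCL2, CXCL3, CXCL5 and CXCL6, so that these 4 stretches fall inside them. CXCL12, CCL7 and CCL20 had no GGAANTTCC in the window. The AP-1 word, present in 6.57% of all windows, was found in IL8 and CCL7, and the TATA word, present in 10.7%, in IL8, CCL7 and CCL20. CXCL12 had none of the 3 words.

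The AU-rich elements of the 3′ UTR were dense in 7 of the members. The pentamer ATTTA occurred 14.0 times per kb of 3′ UTR in CXCL2, 10.4 times in CXCL3, 7.77 times in CXCL1 and 7.19 times in IL8. It occurred 6.34 times per kb in CCL20, 5.51 times in CXCL5 and 5.36 times in CXCL6. CXCL12, CCL2 and CCL7 had 3.19, 2.66 and 2.27 per kb, close to the median of 1.83 over 12357 tested genes with a 3′ UTR of at least 100 bases. A density of 5 per kb or more, a limit set after the values were seen, was reached by 7 members and by 9.23% of these genes. The longer word TTATTTATT, found in 10.1% of these genes, was present in 4 members and is shown in capitals at its first occurrence.
CXCL2: gtcttctatTTATTTATTtatttattt
CXCL1: gtcttctatTTATTTATTtattcatta
CXCL3: tgtcagttgTTATTTATTcaaattatc
IL8: tgtaaagtaTTATTTATTtgaatctac
CXCL2 held 5 copies and CXCL1 held 3, counting overlapping ones, while 3 or more copies occurred in 0.834% of genes. CXCL3 and IL8 held 1 each. These matches are descriptions of the letters only, and binding at them was not measured here.

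Upon HMGB1 knockdown, the neutrophil-attracting chemokines were expressed at higher levels in both isolates. Summed over the 10 members, expression was 524 CPM in control I90-10 and 2063 in control I90-79, and 1837 CPM in knockdown I90-10 and 3817 in knockdown I90-79. Within each isolate the knockdown library had the higher sum, but the control of I90-79 lay above the knockdown of I90-10. Calls needed an adjusted p under 0.01 together with an absolute log2-fold change over 0.6, the limits set in the study's methods. Without a term for the isolate, 0 members were called, against 0.201% of all tested genes. An unadjusted p below 0.05 was reached by 2 members, CXCL6 and CCL7, against 28.3% of all genes. With the isolate as a replicate block, edgeR called 7 members, all higher in knockdown, namely the 6 neutrophil-attracting CXC genes and CCL20, and 0 lower. Of all genes, this fit called 6.68% as higher and 14.5% in either direction. With the block in DESeq2, 4 members were called, CXCL2, CXCL3, CXCL6 and CCL20, against 13.4% of all genes.

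**Figure D1:**
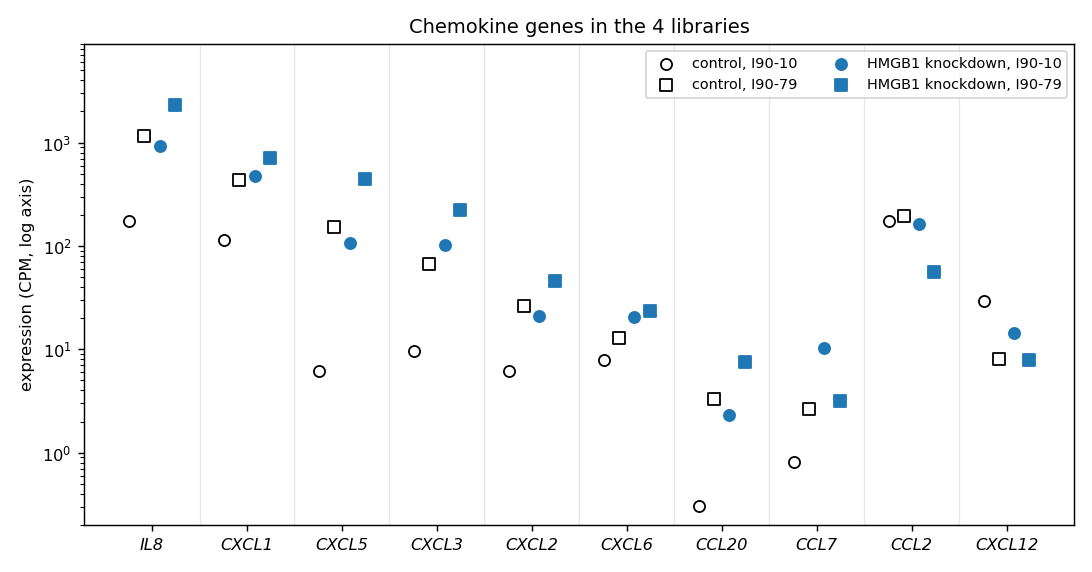
Expression of the 10 chemokine genes (x axis) in the 4 libraries (y axis, CPM on a log scale), with open symbols for control and filled symbols for knockdown. Control I90-10 is the lowest of the 4 libraries for 8 genes, and knockdown I90-79 is the highest for 7.

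IL8, the main neutrophil attractant of human tissue, lies on the plus strand of chromosome 4 (hg19, 74606223 to 74609433), and the other 5 genes of the group lie on the same chromosome. Its expression was 173 CPM in control I90-10, 1161 in control I90-79, 921 in knockdown I90-10 and 2299 in knockdown I90-79. The groups overlapped, since the control of I90-79 exceeded the knockdown of I90-10. The control mean was 667 ± 699 CPM (SD, n = 2), and the knockdown mean was 1610 ± 974 CPM (SD, n = 2). The log2-fold change was 1.27 (SE 0.91, adjusted p = 0.409, edgeR) without the block and 1.69 (SE 0.28, adjusted p = 0.00304) with it. Within I90-10 the level was 5.32-fold higher upon knockdown, and within I90-79 it was 1.98-fold higher.

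CXCL1, located from 74735110 to 74736959 on chromosome 4, encodes the attractant first described as a growth factor of melanoma cells. It was expressed at 115, 433, 478 and 711 CPM, given here and below in the order control I90-10, control I90-79, knockdown I90-10 and knockdown I90-79. Both knockdown libraries were above both controls, although control I90-79 and knockdown I90-10 lay close together. The log2-fold change was 1.11 (SE 0.61, adjusted p = 0.293) without and 1.38 (SE 0.26, adjusted p = 0.00584) with the block in edgeR. The level was 4.15-fold higher upon knockdown in I90-10 and 1.64-fold higher in I90-79.

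CXCL2 and CXCL3 are close paralogs of CXCL1, also induced by IL-1. CXCL2, on the minus strand from 74962752 to 74965010, was at 6.23, 26.3, 20.8 and 45.3 CPM, so that the groups overlapped. CXCL3, on the minus strand from 74902306 to 74904524, was at 9.60, 66.5, 101 and 223 CPM, and its groups did not overlap. The log2-fold change of CXCL2 was 1.02 (SE 0.71, adjusted p = 0.397) without and 1.21 (SE 0.20, adjusted p = 0.00323) with the block. For CXCL3 it was 2.09 (SE 0.90, adjusted p = 0.204) without and 2.50 (SE 0.32, adjusted p = 0.000935) with the block. The study's methods describe unique counts, so reads from stretches that these paralogs share may be missing from the counts. Of the 50-base pieces of CXCL2 transcripts 13.4% occur in another of the 3 genes. The share was 6.01% for CXCL3 and 4.57% for CXCL1. The ratio of CXCL3 to CXCL2, each as RPKM (CPM per kb of exonic length), was 1.04 and 1.71 in the controls and 3.29 and 3.32 in the knockdown libraries.

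CXCL5 and CXCL6 form another pair of paralogs, both attractants of neutrophils, but their levels varied very differently. CXCL5, on the minus strand from 74861359 to 74864496, was at 6.23, 152, 106 and 441 CPM. CXCL6, on the plus strand from 74702214 to 74714781, was at 7.86, 13.0, 20.4 and 23.4 CPM. As a ratio of the highest to the lowest library, CXCL5 spanned the widest range of the 10 genes, and its groups overlapped, while the groups of CXCL6 did not. The log2-fold change of CXCL5 was 1.79 (SE 1.38, adjusted p = 0.445) without and 2.65 (SE 0.49, adjusted p = 0.00478) with the block. That of CXCL6 was 1.07 (SE 0.27, unadjusted p = 0.00908, adjusted p = 0.0718 in edgeR) without and 1.10 (SE 0.16, adjusted p = 0.00150) with the block. CXCL6 was the member called by DESeq2 without a block, which called 10% of all genes. Of the 50-base pieces of CXCL5 transcripts, 12.7% occur elsewhere, and 4.31% of the exonic bases of CXCL6 overlap the pseudogene PPBPP1.

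CCL20, on chromosome 2 from 228678558 to 228682272, had the fewest reads of the members called with the block, with 9, 123, 67 and 237 counts. These correspond to 0.306, 3.34, 2.32 and 7.59 CPM. The groups overlapped in the same way as those of IL8. Its log2-fold change was 1.42 (SE 1.03, adjusted p = 0.419) without and 1.67 (SE 0.36, adjusted p = 0.00924) with the block. Within I90-10, where the control held 9 reads, the log2 ratio was 2.92 with a 95% Clopper-Pearson interval from 1.91 to 4.11, which covers counting error only, as do the other intervals given.

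The monocyte attractants CCL2 and CCL7, which lie next to each other on the plus strand of chromosome 17, had different patterns. CCL2, from 32582304 to 32584222, was at 175, 196, 162 and 55.6 CPM. Both knockdown libraries were below both controls, but in I90-10 the log2 ratio was only −0.11 (95% interval −0.17 to −0.05), whereas in I90-79 it was −1.82 (−1.89 to −1.74). The log2-fold change was −0.77 (SE 0.48, adjusted p = 0.346) without and −0.96 (SE 0.33, adjusted p = 0.058) with the block, so CCL2 was called by neither fit. CCL7, from 32597240 to 32599261, had 24, 97, 296 and 99 counts, or 0.817, 2.63, 10.2 and 3.17 CPM. Knockdown I90-10 was the library with the high level. Its log2 ratio upon knockdown was 3.65 (3.05 to 4.31) in I90-10 and 0.27 (−0.15 to 0.69) in I90-79, the latter interval including 0. The log2-fold change was 1.94 (SE 0.75, unadjusted p = 0.0466, adjusted p = 0.169) without and 1.78 (SE 0.64, adjusted p = 0.066) with the block. As RPKM, CCL2 exceeded CCL7 163-fold and 56.6-fold in the controls and 12.0-fold and 13.3-fold in the knockdown libraries.

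CXCL12, on the minus strand of chromosome 10 from 44793038 to 44881941, had a pattern unlike that of the other CXC genes. Its expression was 29.3, 8.06, 14.5 and 7.88 CPM, the control of I90-10 being the highest of the 4 libraries rather than the lowest. The groups overlapped. Within I90-10 the log2 ratio was −1.01 (95% interval −1.19 to −0.84) and within I90-79 it was −0.03 (−0.28 to 0.22). The log2-fold change was −0.74 (SE 0.64, adjusted p = 0.493) without and −0.56 (SE 0.22, adjusted p = 0.089) with the block. The sign rested on the control of I90-10, as the value was 0.47 without that library, and it was also positive, 0.21, with RUVs followed by DESeq2.

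**Figure D2:**
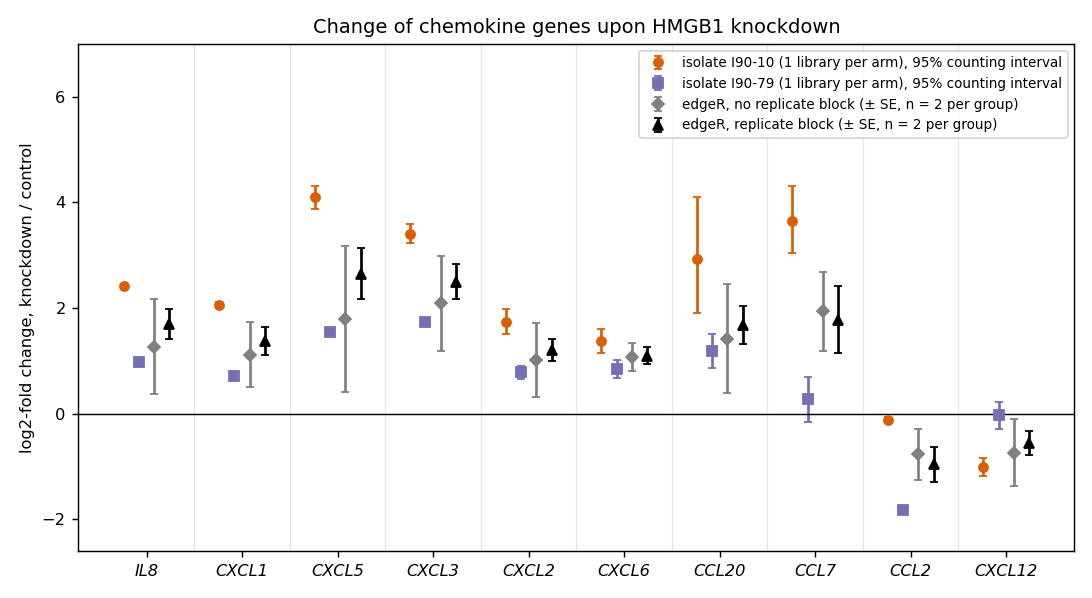
Log2-fold change between knockdown and control (y axis) of the 10 chemokine genes (x axis), within each isolate with 95% counting intervals and from both edgeR fits with the standard error. The values of IL8 are 2.41 in I90-10, 0.99 in I90-79, 1.27 without and 1.69 with the replicate block, and CXCL12 and CCL2 lie below 0 in all 4 estimates.

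Over the 10 members the median log2-fold change was 1.19 without and 1.53 with the block, while the median over all tested genes was −0.0054 and −0.0034. With RUVs followed by DESeq2, the order of steps in the study's methods, the members' median was 0.66. Knockdown was above control in both isolates for 8 members, against 38.9% of all genes, and below it in both for 2, CXCL12 and CCL2, against 39.4%. It was above control by a log2 ratio above 0.6 in both isolates for 7 members, against 8.14% of all genes. Both knockdown libraries lay above both controls for 4 members, CXCL1, CXCL3, CXCL6 and CCL7, against 29.8% of all genes, and below them for CCL2 alone, against 30.2%. The share of members without overlap was thus close to the background. The change differed in size between the isolates. The median within I90-10 was 2.23 and that within I90-79 was 0.82. The log2 change in I90-79 minus that in I90-10 was −2.56 for CXCL5, −1.66 for CXCL3, −1.42 for IL8, −1.34 for CXCL1, −0.96 for CXCL2 and −0.52 for CXCL6. For CCL7 this difference was −3.38, for CCL20 −1.74 and for CCL2 −1.71. CXCL12 went the other way, at 0.98. With 1 library per isolate and group these differences could not be tested. The SE of CXCL5 with the block was 0.49, although its log2 change was 4.09 in I90-10 and 1.54 in I90-79.

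Chemokine expression also differed between the isolates. The isolate coincided with the replicate number, so a difference between isolates cannot be told apart from one between replicate cultures. Against I90-10, IL8 was 6.70-fold higher in I90-79 among the controls and 2.50-fold higher among the knockdown libraries. CXCL5 was 24.4-fold and 4.15-fold higher, CCL20 10.9-fold and 3.27-fold higher, and CXCL1 3.76-fold and 1.49-fold higher. All of these genes were thus higher in I90-79 in both groups. The isolate term of the blocked fit, tested with edgeR at the same thresholds, called 2 members as higher in I90-79, CXCL2 and IL8, against 0.442% of all genes called higher and 1.67% called in either direction. The log2 difference was 1.56 (SE 0.21, adjusted p = 0.00669) for CXCL2 and 2.03 (SE 0.29, adjusted p = 0.00830) for IL8. At an adjusted p below 0.05, 7 members differed between the isolates, against 6.79% of all genes. CXCL1, CXCL3, CXCL5 and CCL20 were the others that were higher in I90-79, and CXCL12 was lower, by −1.39 on the log2 scale (SE 0.22, adjusted p = 0.013). CXCL6, at 0.44 (SE 0.16, adjusted p = 0.144), CCL2, at −0.68 (SE 0.33, adjusted p = 0.274), and CCL7, at −0.37 (SE 0.63, adjusted p = 0.789), did not pass.

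**Figure D3:**
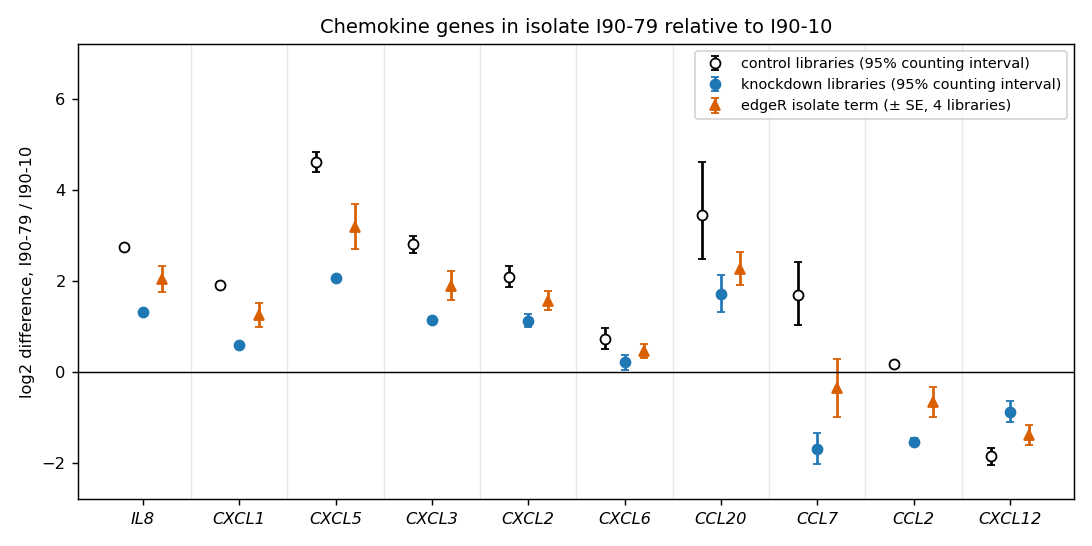
Log2 difference between isolate I90-79 and isolate I90-10 (y axis) for each chemokine gene (x axis), in control libraries (open circles) and knockdown libraries (filled circles) with 95% counting intervals, and from the isolate term of edgeR with the standard error (triangles). Values for IL8 are 2.74 in control and 1.32 in knockdown, those for CXCL12 are below 0 in both, and those for CCL7 (1.69 and −1.69) and CCL2 (0.16 and −1.54) have opposite signs.

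Markers of the fibroblasts also moved with the isolate. The isolate term called 6 of the 12 fibroblast markers, all lower in I90-79, against 1.67% of all genes called in either direction. Among them were COL1A1, the main chain of type I collagen, (adjusted p = 0.0033 in edgeR) and the surface marker THY1 (log2 difference −1.19, adjusted p = 0.00178). COL1A1 was at 12559 and 5665 CPM in the controls and 10573 and 5823 CPM in the knockdown libraries of I90-10 and I90-79. The part of these differences in the chemokine levels was not tested. Upon knockdown, the blocked fit called LUM, an extracellular matrix proteoglycan, as higher. It called PDGFRB, a growth factor receptor, and THY1 as lower, while the other 9 markers were not called. Of all genes, the blocked fit called 6.68% as higher and 14.5% in either direction. The marker PDGFRA, another growth factor receptor, had a log2-fold change of 0.58 without (adjusted p = 0.141, edgeR) and 0.60 with the block (adjusted p = 0.0121). The endothelial list held 3918 to 5502 reads per library, most of them from TEK, whose log2-fold change was −0.17 (adjusted p = 0.340). KDR, at 0.43 (adjusted p = 0.799), and the epithelial genes EPCAM, at 0.08 (adjusted p = 0.921), and CLDN4, at −1.47 (adjusted p = 0.115), were called by neither fit. VWF, an endothelial gene, was at 1.36, 0.923, 4.16 and 2.59 CPM and was called higher with the block (log2-fold change 1.55, SE 0.27, adjusted p = 0.00357), and its part in the result was not tested.

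Per unit of length, IL8 and CXCL1 were the most highly expressed of the 10. The mean over the 4 libraries was 501 RPKM for IL8, 335 for CXCL1, 130 for CCL2, 69.5 for CXCL5 and 45.1 for CXCL3. It was 16.5 RPKM for CXCL2, 7.40 for CXCL6, 4.89 for CCL7, 2.54 for CCL20 and 2.34 for CXCL12. This order depends on the exonic length of the gene models, 6380 bases for CXCL12 and 1335 for CCL20. In CPM, CXCL12 was above CCL20 in each of the 4 libraries. Of the 9 pairs of neighbours in this order, 2 kept their order in each of the 4 libraries, CXCL3 above CXCL2 and CXCL2 above CXCL6, and the others crossed in at least 1 library. In control I90-10, CCL2 was the highest of the 10 with 154 RPKM, above CXCL1 with 88.9 and IL8 with 76.2. In knockdown I90-79, CCL2 was below CXCL5 and CXCL3, with 48.9 RPKM against 174 and 100.4.

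Within the neutrophil-attracting group the mixture of ligands also shifted between libraries. The RPKM of the 6 genes summed to 180 in control I90-10, 959 in control I90-79, 885 in knockdown I90-10 and 1875 in knockdown I90-79. IL8 made up 42.4%, 53.3%, 45.8% and 53.9% of the sum, and CXCL1 made up 49.5%, 34.9%, 41.7% and 29.3%. CXCL1 was the larger of these components in control I90-10, and IL8 was the larger in the remaining libraries. CXCL5 made up 1.37%, 6.25%, 4.74% and 9.28%, and CXCL6 made up 2.01%, 0.620%, 1.06% and 0.572%. The ratio of CXCL5 to CXCL6 therefore ranged from 0.681 in control I90-10 to 16.2 in knockdown I90-79, with 10.1 and 4.48 in the other two libraries.

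The other chemokine ligands were mostly absent or low. Of 34 further ligand genes, 8 were tested, and 18 had 0 reads in all 4 libraries. Including these, 21 had at most 3 counts in every library. Without the block 0 were called, with 1 at an unadjusted p below 0.05, against 28.3% of all genes. The median log2-fold change of the 8 was −0.28, against −0.0054 over all genes. With the block, CXCL10, an interferon-induced attractant of T cells through CXCR3, was called lower, at 15.4, 33.0, 6.99 and 12.2 CPM. It was the 1 gene called of the 8, against 14.5% of all genes called in either direction. Its log2-fold change was −1.34 (SE 0.44, adjusted p = 0.126) without and −1.30 (SE 0.14, adjusted p = 0.000384) with the block. CXCL10 was higher in I90-79 than in I90-10, like IL8, yet it was lower upon knockdown in both isolates. CXCL16 and CX3CL1, ligands that are made as membrane proteins, had log2-fold changes of −0.50 and −0.46 and were not called. CCL11, the eotaxin gene beside CCL7, named after its values were seen, was at 6.09, 4.91, 4.74 and 0.672 CPM, with its lowest level in knockdown I90-79 as for CCL2 (log2-fold change with the block −1.34, adjusted p = 0.065).

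Chemokine receptors were hardly expressed by these cells. Of 23 receptor genes, 4 were tested, 13 had 0 reads in every library and 0 were called by either fit. In edgeR 0 had an unadjusted p below 0.05, against 28.3% of all genes. The receptors of the members' best-known routes, CXCR1, CXCR2, CXCR4, CCR2 and CCR6, were all at 0 reads in every library. CCR7, at 0.39 (adjusted p = 0.625), and CCR10, at −0.44 (adjusted p = 0.567), had low counts and did not pass. ACKR3, a scavenging receptor for CXCL12, held 6, 13, 19 and 14 counts, and its log2-fold change of 0.95 (SE 0.51, adjusted p = 0.286) did not pass.

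Among the signals that induce chemokines, IL1A rose and TLR3 fell with the block, while IL1B was higher upon knockdown in I90-10 only. Of the 20 genes listed, 16 were tested, 10 of them with a positive and 6 with a negative log2-fold change (median 0.16). Without the block 3 had an unadjusted p below 0.05, against 28.3% of all genes, and 0 were called. With the block 1 was called higher and 1 lower, against 6.68% of all genes called higher and 14.5% called in either direction. IL1A, the cell-bound form of IL-1, was at 6.60, 32.2, 34.5 and 81.4 CPM. It was called higher with the block, at 1.80 (SE 0.22, adjusted p = 0.000651), against 1.57 (SE 0.78, adjusted p = 0.253) without. IL1B, which was more abundant than IL1A, was at 42.9, 419, 159 and 340 CPM and was called by neither fit. Its level upon knockdown was 3.70-fold that of control in I90-10 and 0.81-fold in I90-79. TLR3, a sensor of double-stranded RNA, was called lower with the block, at −1.45 (SE 0.27, adjusted p = 0.00526). TNFRSF1A, the main TNF receptor, was at 206, 190, 149 and 135 CPM, and its log2-fold change of −0.48 did not reach the threshold of 0.6. IRAK1, a kinase of IL-1 and Toll-like receptor signalling, had a log2-fold change of 0.42 (SE 0.12, adjusted p = 0.0971) and was not called.

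In the list of NF-κB subunits and inhibitors, 14 genes were tested, 12 with a positive and 2 with a negative log2-fold change (median 0.22), and 0 were called without the block. An unadjusted p below 0.05 was reached by 5 of the 14, against 28.3% of all genes. With the block 1 was called higher and 0 lower, against 6.68% of all genes called higher and 14.5% called in either direction. TNFAIP3, an NF-κB target that encodes the inhibitor A20, was at 114, 192, 265 and 325 CPM and was called higher with the block, at 0.99 (SE 0.12, adjusted p = 0.000808). The subunit RELA was at 71.0, 76.9, 109 and 107 CPM, with a log2-fold change of 0.55 (SE 0.11, adjusted p = 0.0448) without the block, which is below the fold threshold. REL, a subunit with low expression, was at 3.78, 4.21, 6.27 and 7.88 CPM and was not called.

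Among the genes of AU-rich mRNA decay, HNRNPD was lower upon knockdown in both isolates. All 14 were tested, 6 with a positive and 8 with a negative log2-fold change (median −0.16). An unadjusted p below 0.05 was reached by 9 of them, against 28.3% of all genes, and 0 were called without the block. With the block 2 were called higher and 2 lower, against 6.68% of all genes called higher and 14.5% called in either direction. HNRNPD, which encodes the ARE-binding protein AUF1, was at 198, 234, 58.8 and 69.1 CPM. Its log2-fold change was −1.75 without the block (SE 0.15, adjusted p = 0.0104) and with it (SE 0.09, adjusted p = 3.43e-05). PABPC1, a poly(A)-binding protein, was at 816, 733, 446 and 429 CPM and was called lower with the block (−0.82, SE 0.10, adjusted p = 0.000571). ZC3H12A, an RNase that degrades inflammatory mRNAs, and MAPKAPK2, a kinase that stabilises them, were called higher with the block, at 0.74 (SE 0.14, adjusted p = 0.00616) and 0.62 (SE 0.09, adjusted p = 0.00182). Whether any of these genes acted on the chemokine mRNAs was not tested.

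Proteases that trim chemokines after secretion were measured in the same libraries. Of 9 genes 7 were tested, and their median log2-fold change was 0.43. Without the block 3 had an unadjusted p below 0.05, against 28.3% of all genes, and 0 were called. With the block 3 were called higher and 1 lower, against 6.68% of all genes called higher and 14.5% called in either direction. MMP3 (stromelysin) was at 3.91, 61.8, 123 and 579 CPM, an order of the libraries that matches that of CXCL3, and its log2-fold change was 3.94 (SE 0.34, adjusted p = 0.000162) with the block and 3.41 (SE 1.36, adjusted p = 0.178) without. MMP1, the interstitial collagenase, was at 96.5, 439, 1146 and 1678 CPM and was called higher with the block, with a log2-fold change of 2.75 (SE 0.33, adjusted p = 0.000673). CTSB, a lysosomal protease, was also called higher at 0.96 (SE 0.10, adjusted p = 0.000338), and ANPEP, an aminopeptidase of the cell surface, lower at −0.66 (SE 0.10, adjusted p = 0.00166). DPP4, which removes the first residues of CXCL12 and other chemokines, had a log2-fold change of 0.43 and stayed below the fold threshold.

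**Figure D4:**
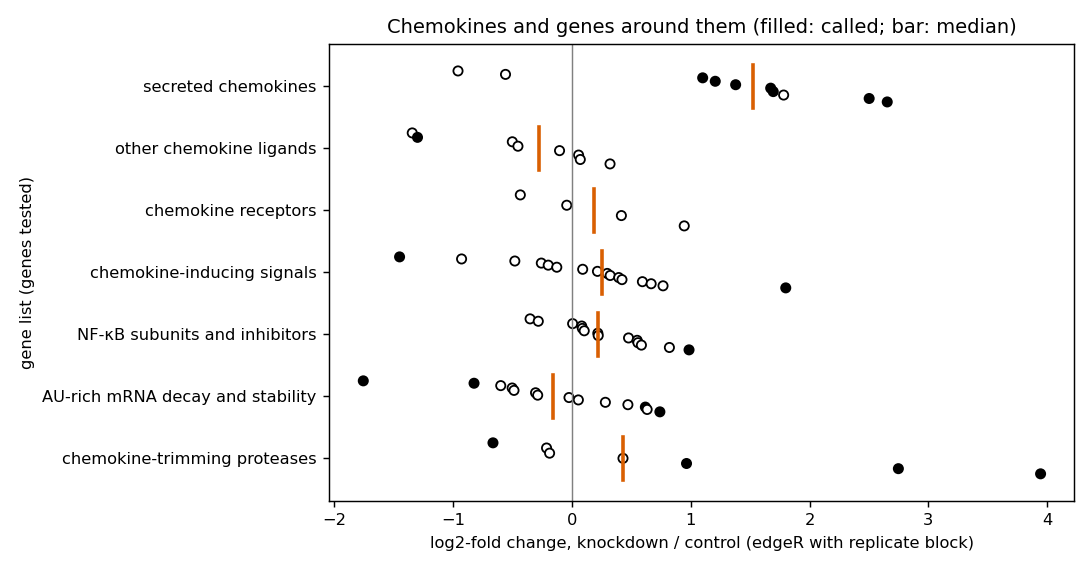
Log2-fold change upon knockdown from edgeR with the replicate block (x axis) for each tested gene of the chemokine list and the lists around it (y axis), with filled points for called genes and a bar at the median. The median of the chemokine list lies at 1.53 with 7 filled points, and those of the other chemokine ligands and the NF-κB list lie at −0.28 and 0.22.

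Genes with a profile like that of a member were looked for across the 15398 tested genes, by the Euclidean distance between centred log2 CPM over the 4 libraries. The nearest to IL8 were PTGS2, the inducible cyclooxygenase, at 0.30, ELOVL7 at 0.32 and IL13RA2 at 0.33, and the nearest member, CCL20, was at 0.47. Among genes that are not members, PTGS2 was also the third nearest to CCL20, at 0.50. The nearest gene to CXCL1 was HES1, a target of Notch signalling, at 0.10, and its nearest member was CXCL2, at 0.42. For CXCL3 the list held STC1, a secreted glycoprotein hormone, at 0.29. CXCL5 had no close neighbour, as its nearest genes were TFAP2C at 0.96 and the cytokine gene IL24 at 1.13. CXCL6 was nearest to RPP25 at 0.06 and PHLDA1 at 0.09, and its nearest member, CXCL1, ranked 2918th in closeness. The distance counts the size of the differences as well as their shape. CXCL6 and CXCL1 had the same order of the 4 libraries. CCL7 was nearest to HLA-J, at 0.58. CXCL12 was nearest to PLA2R1 at 0.12, and CCL2 to IQCH-AS1 at 0.10. Each profile has 4 points that share libraries, so these distances describe likeness and carry no test.

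The size of the change depended on which libraries entered the fit. Without control replicate 2, which left I90-10 as the lone control, the members' median was 2.72 and 4 members were called, CXCL1, CXCL3, CXCL5 and CXCL6, against 4% of all genes. Without control replicate 1 the log2-fold change of IL8 was 0.47 and that of CXCL5 was 0.85, and 0 members were called. The median over the members was then 0.52, and it was 0.45 without knockdown replicate 2. Without the filter on low counts, edgeR called all 10 members, against 8.74% of the genes in that fit. Among the members 8 were called higher, and CCL2 and CXCL12 lower. The log2-fold changes hardly moved, that of CXCL3 being 2.10 without and 2.09 with the filter. Its adjusted p in edgeR was 1.6e-33 without and 0.204 with the filter. CXCL12 was called there although its groups overlapped. RUVs followed by DESeq2 called CXCL6 alone, against 10.4%.

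**Figure D5:**
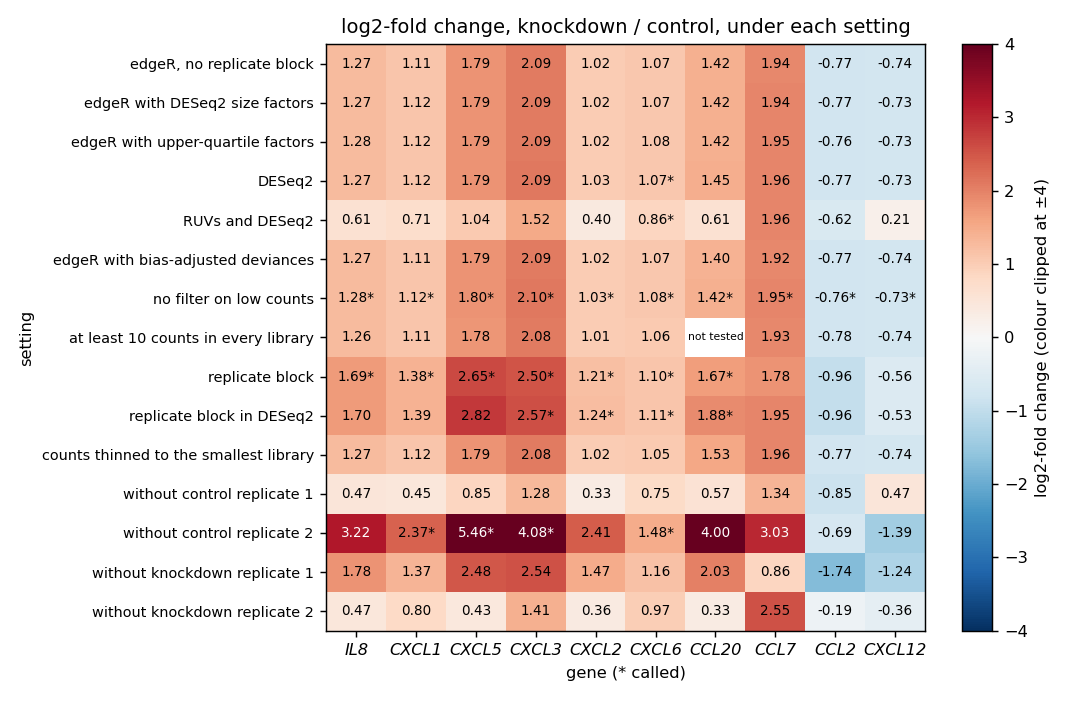
Log2-fold change between knockdown and control (colour and printed value) of each chemokine gene (x axis) under each way of processing (y axis), with an asterisk where the gene was called. The value of CXCL3 ranges from 1.28 without control replicate 1 to 4.08 without control replicate 2, and CXCL12 is the gene whose sign changes.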

How the data were processed

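RNA-seq was performed on IMR90 of the isolates I90-10 and I90-79, treated with non-targeting siRNA or siRNA against HMGB1. The authors made TruSeq libraries from poly(A) RNA, aligned paired reads (STAR, hg19) and deposited raw counts per gene from featureCounts, 1 file per library. The submitters' processing notes also name DESeq2 and GRCh37. Tool versions and the strand setting are not given in the sources used here, so reads of overlapping genes on opposite strands cannot be separated.

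The 4 libraries were compared by the quasi-likelihood test of edgeR (version 4.0.16, under R version 4.3.3 with limma version 3.58.1), using filterByExpr and TMM factors, and p was adjusted by Benjamini-Hochberg over 15398 genes. This fit has no isolate term and no factor of unwanted variation. The study's methods name no isolate term either, but remove such factors with RUVs before DESeq2, which was run as an alternative. The isolates pair the libraries, because both occur in both groups, and the I90-79 minus I90-10 difference had a correlation of 0.46 across 15398 genes between control and knockdown, so a second fit that takes the isolate for a replicate block is given beside it. Standard errors are the log2-fold change divided by the square root of F. Alternatives were DESeq2 1.42.0, RUVs with 1 factor (written out from its description) and DESeq2, other size factors, other filters, bias-adjusted deviances, thinned counts, other thresholds and leaving out each library. The fits were also run on simulated counts, with less scatter between replicates than in these data and no isolate difference. That run cannot show how they behave with the isolate differences seen here. Counting intervals within an isolate are 95% Clopper-Pearson intervals.

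The members and gene lists were chosen with earlier results of these data known. The text names all members, HMGB1, and in each list the 3 genes with the smallest p and each gene called with or without the block, and for each member some of the 3 nearest other genes. CCL11, IL1B, the collagen gene COL1A1 and the zero-count markers and receptors were named in addition. Promoter windows come from RefSeq, and 3′ UTRs and shared 50-base pieces from GENCODE annotation on hg19. RPKM use the exonic length in the files. Columns of per-sample values of other samples numbered 0.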

Additional observations from a re-analysis of the deposited data

How the results depend on the processing

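Among 139 log2-fold changes of single members under 14 other settings, 110 kept their direction and side of the thresholds, 27 kept their direction and became called, and 2 reversed. Both were of CXCL12, at 0.21 with RUVs and DESeq2 and 0.47 without control replicate 1, and its values with 1 library left out ranged from −1.39 to 0.47. Without the block edgeR called 0 members, 31 genes in all and 0 genes of the other lists. These counts were 1, 1546 and 5 with DESeq2, 1, 1595 and 14 with RUVs and DESeq2, and 10, 2393 and 18 without a filter on low counts. With the replicate block, which pairs the libraries by isolate, they were 7, 2235 and 16, and with the replicate block in DESeq2 they were 4, 2058 and 16. Bias-adjusted deviances gave 98 genes and 1 list gene, and an adjusted p below 0.05 gave 1243 and 4. With 1 library left out, 0 to 4 members, 0 to 642 genes and 0 to 6 list genes were called, the highest values being those without control replicate 2 (299 genes without control replicate 1), and the median over the members ranged from 0.45 to 2.72. A lone library in a group was taken to vary like the other group. The isolate term called 2 members, 1 with at least 10 counts in every library, 8 without a filter and 7 at an adjusted p below 0.05. Leaving out a library could not be run for it, since no residual degrees of freedom remain. CCL20, with 9 reads in 1 library, was not tested with at least 10 counts in every library. The causes of these differences were not tested.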
